A study of Mus musculus with 21 samples.

Results

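A set of 10 genes of growth-factor and cytokine signalling was examined in mouse embryonic stem cells after 8 h of auxin, which targets a tagged ribosomal protein for removal. Removal below stands for this treatment, since the labels do not give how far or when the protein was lost. It holds the LIF receptor chains Lifr and Il6st, the intracellular effectors Stat3 and Socs3, the ligand Fgf4, and the receptor tyrosine kinases Fgfr1, Fgfr2, Igf1r, Insr and Kit. The genes are matched by symbol, and the set was drawn up with earlier results of these data known; all 10 were listed in each of the 3 deposited tables, which hold 12905 genes for RACK1, 12274 for RPLP1 and 12353 for RPLP0, with 11874 transcripts in common.

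LIF, an interleukin-6 family cytokine, holds mouse embryonic stem cells in self-renewal. It binds LIFR, which pairs with the shared signal chain gp130, the product of Il6st; the attached JAK kinases then phosphorylate STAT3, which enters the nucleus and switches on its targets, among them Socs3, whose product shuts the receptor off again. FGF4, made by the stem cells themselves, acts in the opposite sense: through FGF receptors and the RAS-ERK cascade it prepares the cells to leave the naive state. IGF1R, INSR and KIT are surface tyrosine kinases that feed survival and growth signals into PI3K and ERK.

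Each cell line was an E14 line in which 1 ribosomal protein carries an auxin-inducible degron (genotypes RACK1-AID/RPS26-Tir1, RPLP1-AID/RPS26-Tir1 and RPLP0-AID/RPS26-Tir1), so the receptor Tir1 is joined by name to RPS26 in every line and treatment. RACK1 sits on the small subunit, and RPLP1 and RPLP0 belong to the stalk of the large subunit that recruits translation factors. For each line the labels give 3 polyadenylated RNA samples after 8 h of auxin (IAA) and 3 after 8 h of the solvent DMSO, and a single footprint library into which the replicates of both treatments were pooled. Footprints are the stretches of mRNA shielded by a ribosome, read by ribosome profiling. How footprint FDRs were made from a pooled library is not stated in the sources used here, so the replicate basis of every footprint FDR, SE and interval, and of the translation efficiencies and line differences built on them, is unknown. No degron-free line was among the samples, so an effect of IAA itself cannot be told apart from removal, and whether each line is 1 clone or its replicates separate cultures is not stated.

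The tables give, per gene, the authors' log2 changes for mRNA and for footprints, each with a false discovery rate (FDR). The sign was read as higher or lower after removal, since the headers name no numerator. Values per sample were not analysed here, so read depth is unknown, and FDRs may measure technical spread. A change was called where the authors' FDR was below 0.05. Standard errors (SE) and 95% intervals were derived here from each change and its FDR. Below, credit to the authors' deposited table covers the log2 change and the FDR, and not the SE or a percent change. All 10 embryonic stem cell markers examined, including Pou5f1, Sox2 and Nanog, were in every table. In mRNA 0, 3 and 2 of them were called for RACK1, RPLP1 and RPLP0, against 0.48%, 14.2% and 9.95% of all genes. Fgf4, a member of the set, is 1 of these markers and 1 of the 3 called for RPLP1. Of 8 fibroblast markers 4 were listed in each table, and the highest count of called ones was 1, Col1a1 in RPLP0. Of 6 primitive endoderm markers 5, 4 and 3 were listed for RACK1, RPLP1 and RPLP0, with 0 called in mRNA. The part of these markers in the results was not tested.

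After RPLP1 removal 5 of the 10 mRNAs fell and none rose: Fgfr1, Il6st, Fgf4, Igf1r and Kit. Over all genes 8.59% were called lower and 14.2% in either direction in that table. The median mRNA change of the 10 genes was -0.25, against -0.01 over all 12274 genes. After RACK1 removal 1 of 10 was called, Socs3, which rose, against 0.17% of all genes called higher and 0.48% called in either direction. After RPLP0 removal 1 of 10 was called, Lifr, which also rose; 5.05% of all genes were called higher and 9.95% in either direction there, so the share of the 10 genes is near that of the table. At an unadjusted p below 0.05 the mRNA counts were 2 for RACK1, 6 for RPLP1 and 4 for RPLP0, against 10.7%, 29.1% and 23.2% of all genes. Medians of the 10 were -0.04 after RACK1 and -0.05 after RPLP0 removal, against 0.00 for all genes in both. Most of these genes were measured more precisely than the typical one (median SE of the mRNA change 0.08 over the 10 genes and 0.12 over all genes in RPLP1), which makes a call more likely.

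**Figure D1:**
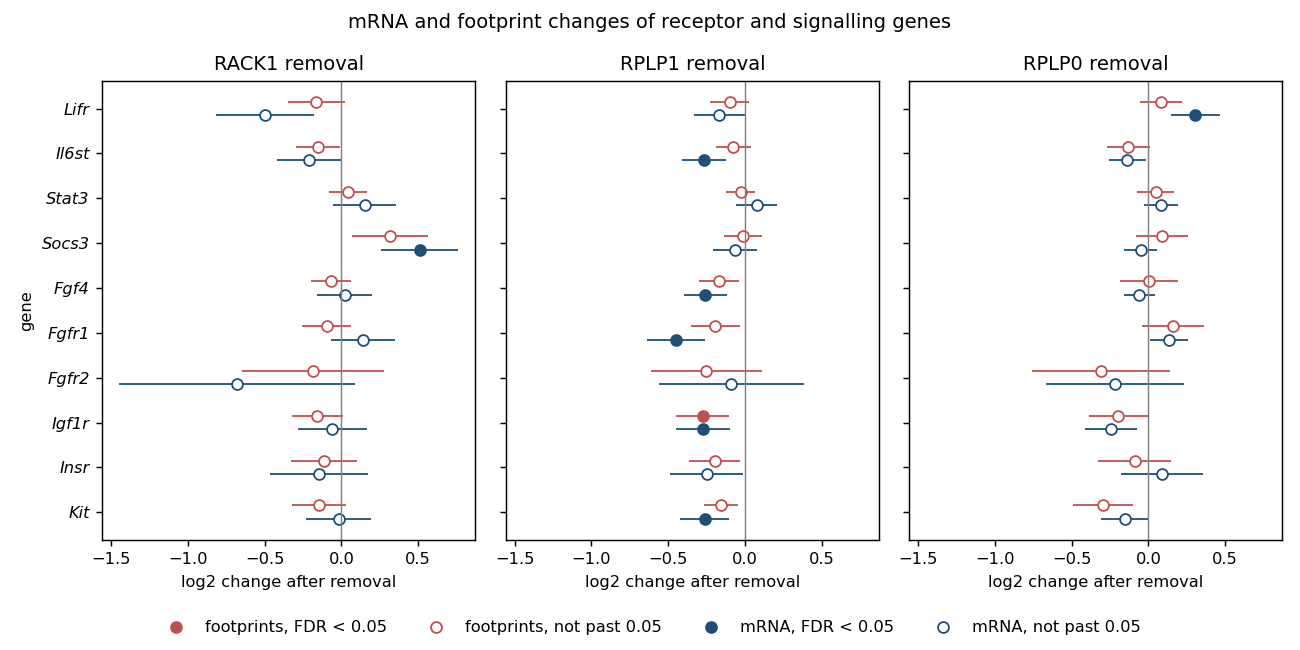
Log2 change after removal (x axis) of mRNA (blue) and footprints (red) for each of the 10 genes (y axis) in the 3 lines; bars are 95% intervals from the implied SE, filled points have an FDR below 0.05. In the RPLP1 panel 5 filled mRNA points lie left of 0, and single ones lie right of 0 for Socs3 after RACK1 and Lifr after RPLP0 removal.

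In footprints, 1 of the 10 genes passed in the RPLP1 table, Igf1r, which fell, against 4.85% of all genes called lower and 8.39% in either direction. None passed after RACK1 removal, where 0.031% of all genes did, or after RPLP0 removal, where 2.46% did; at an unadjusted p below 0.05 the counts were 2 and 2, against 8.29% and 20.7% of all genes. All 10 footprint changes after RPLP1 removal were below 0, between -0.28 and -0.01 with a median of -0.16, and 5 had an unadjusted p below 0.05, as did 26.0% of all genes. After RACK1 removal 8 of 10 were below 0 (median -0.13), and after RPLP0 removal 5 of 10 (median -0.04). Of all genes 54.9% were below 0 in footprints for RACK1, 51.5% for RPLP1 and 50.1% for RPLP0. Across all genes the medians were -0.01 for RPLP1, -0.01 for RACK1 and 0.00 for RPLP0.

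The members were also split by where the protein works, into 8 surface or secreted ones and 2 intracellular ones. This division was made after the values were seen, so these values cannot test a difference between the groups. After RPLP1 removal the 8 had mRNA changes between -0.45 and -0.09 and footprint changes between -0.28 and -0.08, all below 0. Stat3 and Socs3 lay between -0.06 and 0.08 in mRNA and between -0.03 and -0.01 in footprints. The nearest values of the groups were not called and lay close together for their SEs. In mRNA they were -0.09 for Fgfr2 (SE 0.24) and -0.06 for Socs3 (SE 0.07). In footprints they were -0.08 for Il6st (SE 0.06) and -0.03 for Stat3 (SE 0.05). In the RACK1 line the footprints of all 8 were also below 0, between -0.18 and -0.07, with none called, while those of Stat3 and Socs3 were above 0. In the RPLP0 line 5 of the 8 were below 0 in each assay.

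Among the receptor chains for LIF, Lifr (ENSMUST00000067190.11) had mRNA changes of different sign between lines. In the authors' deposited table its mRNA had a log2 change of -0.50 after RACK1 removal (SE 0.16, FDR 0.144) and of -0.17 after RPLP1 removal (SE 0.09, FDR 0.173), neither past the threshold. In the RPLP0 line it rose by 0.31 (SE 0.08, FDR 0.0044), a 23.6% increase, per the authors' deposited table. The difference between the lines was itself tested: RACK1 minus RPLP0 was -0.80 (SE 0.18) and RPLP1 minus RPLP0 was -0.47 (SE 0.12), both past 0.05 after adjustment over all shared genes, whereas RACK1 minus RPLP1, -0.33 (95% interval -0.69 to 0.03), was not. Such differences passed for 3.27%, 12.2% and 7.93% of all genes in these 3 pairs of lines.

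The footprint changes of Lifr lay nearer 0 than its mRNA changes in every line. The authors' deposited table gave -0.16 after RACK1 removal (FDR 0.658), -0.10 after RPLP1 removal (FDR 0.331) and 0.08 after RPLP0 removal (FDR 0.5). None of them passed, so the rise of Lifr mRNA in the RPLP0 line had no called counterpart on ribosomes; the 95% interval of its footprint change there was -0.05 to 0.22.

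Il6st (ENSMUST00000183663.7), the chain that LIFR shares with other receptors of the family, lay below 0 in all 6 measurements. Its mRNA fell by 0.27 on the log2 scale after RPLP1 removal (SE 0.07, FDR 0.00669), and in the authors' deposited table the changes after RACK1 and RPLP0 removal were -0.21 (FDR 0.472) and -0.14 (FDR 0.139). For footprints the authors' deposited table gave -0.15 for RACK1 (FDR 0.569), -0.08 for RPLP1 (FDR 0.417) and -0.13 for RPLP0 (FDR 0.269). No difference between lines passed for Il6st mRNA: RACK1 minus RPLP0 was -0.07 (95% interval -0.31 to 0.17), RACK1 minus RPLP1 was 0.06 (-0.20 to 0.31) and RPLP1 minus RPLP0 was -0.13 (-0.32 to 0.06).

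Stat3 (ENSMUST00000127638.7), the transcription factor that carries the LIF signal, was not called in any table. Its mRNA changes in the authors' deposited table were 0.15 (FDR 0.624) after RACK1, 0.08 (FDR 0.469) after RPLP1 and 0.08 (FDR 0.399) after RPLP0 removal. Footprint changes were 0.04, -0.03 and 0.05 in the same order of lines in the authors' deposited table, all with FDRs above the threshold. The 95% intervals for mRNA spanned -0.05 to 0.35, -0.06 to 0.21 and -0.03 to 0.19, and for footprints -0.08 to 0.17, -0.12 to 0.07 and -0.07 to 0.17.

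Socs3 (ENSMUST00000054002.3) encodes the feedback inhibitor that binds gp130 and JAK and is a direct STAT3 target. Its promoter is shown because Socs3 is the 1 member called after RACK1 removal. The 250 bases before the start annotated by RefSeq on GRCm38.p6 (chr11:117969367-117969616, minus strand) hold 1 match to the STAT motif TTCNNNGAA, in capitals.
Socs3: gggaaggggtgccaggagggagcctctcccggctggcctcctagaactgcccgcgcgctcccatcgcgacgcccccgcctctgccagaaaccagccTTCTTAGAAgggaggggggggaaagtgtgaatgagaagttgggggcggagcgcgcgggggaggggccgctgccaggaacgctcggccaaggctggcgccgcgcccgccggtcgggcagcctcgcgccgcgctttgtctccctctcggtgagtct
The match, TTCTTAGAA, begins 154 bases before the start. Of 32851 promoters of that length in the RefSeq table, searched on both strands of this palindromic motif, 7.02% hold a match; of the 8 members with an entry, Socs3 was the 1 with a match. A match describes letters and no binding.

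Socs3 mRNA rose by 0.51 after RACK1 removal (SE 0.13, FDR 0.0234), a 42.4% increase, per the authors' deposited table. This placed it above 95% of the genes in that table. Its footprints had a change of 0.32 (SE 0.13, FDR 0.485) in the authors' deposited table, above 96.5% of genes but not past the threshold. After RPLP1 and RPLP0 removal the authors' deposited table gave mRNA changes of -0.06 (FDR 0.594) and -0.05 (FDR 0.636). RACK1 minus RPLP1 was 0.58 (SE 0.15) and RACK1 minus RPLP0 was 0.56 (SE 0.14), both past 0.05 after adjustment, so the mRNA response in the RACK1 line differed from that in each stalk line.

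Fgf4 (ENSMUST00000060336.4), the main FGF ligand of these cells and a target of Oct4 and Sox2, fell in the RPLP1 line. Its mRNA had a log2 change of -0.26 there (SE 0.07, FDR 0.00596), and footprints of -0.17 (SE 0.07, FDR 0.0844), just outside the threshold, in the authors' deposited table. After RACK1 removal mRNA and footprint changes were 0.02 (FDR 0.957) and -0.07 (FDR 0.82), and after RPLP0 removal -0.06 (FDR 0.514) and 0.00 (FDR 0.988), in the authors' deposited table. The difference RPLP1 minus RPLP0, -0.20 (95% interval -0.37 to -0.03), did not pass after adjustment, and nor did RACK1 minus RPLP1, 0.28 (0.05 to 0.51).

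Il6st and Fgf4 fell with the lowest FDRs after Fgfr1 in the RPLP1 table, and their promoters are shown as the pair of these with a RefSeq entry. Capitals mark GGGCGG on either strand, the GC box that factors of the Sp family bind. Il6st covers chr13:112463820-112464069 (plus strand) and Fgf4 chr7:144861136-144861385 (plus strand), both GRCm38.p6.
Il6st: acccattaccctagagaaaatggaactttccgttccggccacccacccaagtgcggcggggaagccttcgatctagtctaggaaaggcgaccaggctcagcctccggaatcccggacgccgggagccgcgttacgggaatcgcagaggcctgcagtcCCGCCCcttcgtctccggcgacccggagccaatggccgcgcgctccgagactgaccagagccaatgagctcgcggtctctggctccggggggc
Fgf4: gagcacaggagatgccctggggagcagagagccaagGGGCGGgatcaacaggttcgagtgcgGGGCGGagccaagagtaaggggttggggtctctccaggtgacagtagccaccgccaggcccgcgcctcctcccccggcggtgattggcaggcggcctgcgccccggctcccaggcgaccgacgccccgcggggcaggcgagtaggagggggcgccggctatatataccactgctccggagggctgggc
The Il6st window holds 1 GC box and the Fgf4 window 2. Of the members' 10 promoters, which belong to 8 genes, 8 had a GC box, against 32.7% of all promoters. Kit is entered with overlapping windows that share the same GC box, and by gene the count was 7 of 8. GC content was also higher, with a median of 70.8% over the members' 10 promoters and 52.4% over all. The promoters without one were that of Fgfr2, with a GC content of 44.0%, and 1 of the 2 of Lifr, with 50.8%.

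Fgfr1 (ENSMUST00000084027.12), the FGF receptor through which FGF4 acts in embryonic stem cells, had the largest of the 5 decreases after RPLP1 removal. Its mRNA fell by 0.45 on the log2 scale (SE 0.10, FDR 0.000435), a change of -26.7%, per the authors' deposited table; 8.10% of genes had lower values. Footprints changed by -0.19 (SE 0.08, FDR 0.106) in the authors' deposited table and did not pass. In the RACK1 and RPLP0 lines its mRNA changes were both 0.14 (FDR 0.675 and 0.16) in the authors' deposited table. RPLP1 minus RPLP0 was -0.58 (SE 0.12) and RACK1 minus RPLP1 was 0.59 (SE 0.14), both past 0.05 after adjustment. RACK1 minus RPLP0 was 0.00, with a 95% interval of -0.24 to 0.25. For footprints the same comparison of RPLP1 with RPLP0 gave -0.35 (95% interval -0.61 to -0.09), not past the threshold after adjustment.

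Fgfr2 (ENSMUST00000120187.8) could not be judged at this precision. Its mRNA changes were -0.68 (SE 0.39, FDR 0.535) after RACK1, -0.09 (SE 0.24, FDR 0.847) after RPLP1 and -0.22 (SE 0.23, FDR 0.622) after RPLP0 removal in the authors' deposited table. Its mRNA SE exceeded that of 83.1%, 79.9% and 79.2% of genes in those tables, the highest among the 10 genes in each line. Footprints had changes of -0.18 (FDR 0.87), -0.25 (FDR 0.392) and -0.31 (FDR 0.433) in the authors' deposited table, all below 0.

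**Figure D2:**
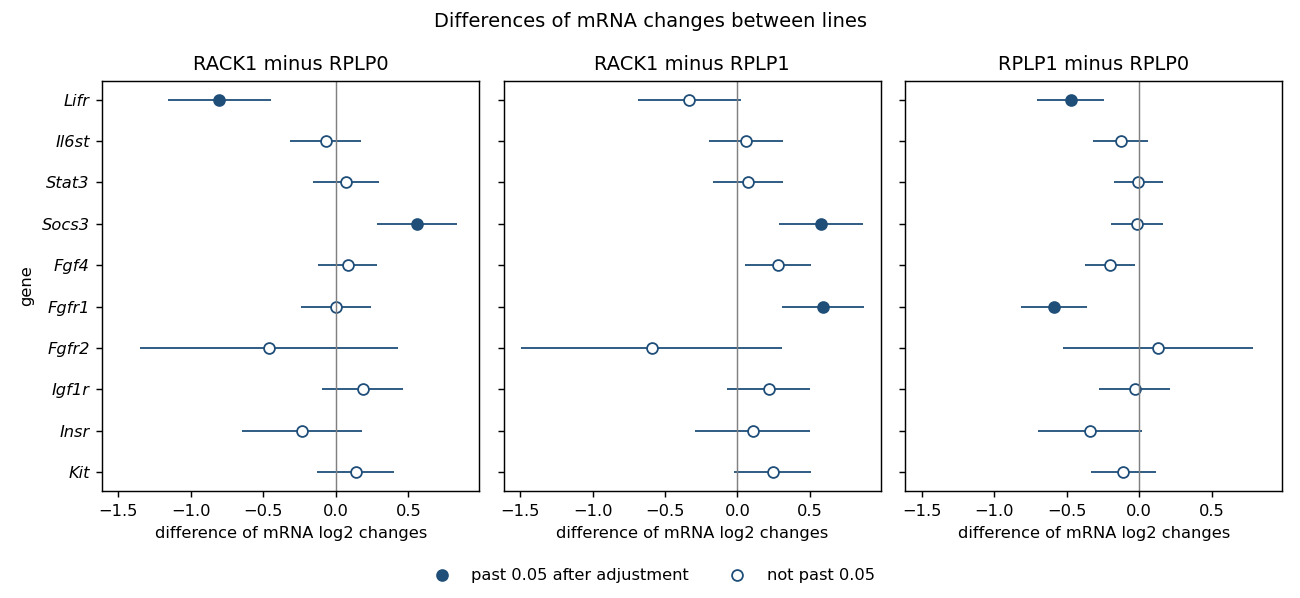
Difference of mRNA log2 changes between 2 lines (x axis) for the 10 genes (y axis), with 95% intervals from the implied SE; filled points passed 0.05 after adjustment over all shared genes. Lifr, Socs3 and Fgfr1 each have a filled point in 2 of the 3 comparisons, and the interval of Fgfr2 is the widest in each.

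Igf1r (ENSMUST00000005671.9), the receptor for IGF1 and IGF2, was the 1 member called in both assays. After RPLP1 removal its mRNA had a log2 change of -0.27 (SE 0.09, FDR 0.0238) and its footprints of -0.28 (SE 0.09, FDR 0.0303) in the authors' deposited table. The changes in the RPLP0 line were of like size, -0.24 (SE 0.09, FDR 0.0512) for mRNA and -0.20 (SE 0.10, FDR 0.227) for footprints in the authors' deposited table, the mRNA value lying just outside the threshold. RPLP1 minus RPLP0 was -0.03 for mRNA (95% interval -0.27 to 0.21). After RACK1 removal the authors' deposited table gave -0.06 (FDR 0.899) and -0.16 (FDR 0.632).

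The related insulin receptor gene Insr (ENSMUST00000091291.4) was not called in any table. Its changes after RPLP1 removal, -0.25 for mRNA (SE 0.12, FDR 0.148) and -0.20 for footprints (SE 0.08, FDR 0.111) in the authors' deposited table, were near those of Igf1r but less precise in mRNA. After RACK1 removal it had -0.14 (FDR 0.806) and -0.11 (FDR 0.81), and after RPLP0 removal 0.09 (FDR 0.755) and -0.09 (FDR 0.692), in the authors' deposited table.

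Kit (ENSMUST00000005815.6), the receptor for stem cell factor, fell in mRNA after RPLP1 removal by 0.26 on the log2 scale (SE 0.08, FDR 0.0165), with footprints at -0.16 (SE 0.06, FDR 0.0566), in the authors' deposited table. In the RPLP0 line its footprints had the larger change, -0.29 (SE 0.10, FDR 0.0701) against -0.15 for mRNA (SE 0.08, FDR 0.229), and neither passed in the authors' deposited table. After RACK1 removal the authors' deposited table gave -0.02 (FDR 0.973) for mRNA and -0.15 (FDR 0.681) for footprints. Kit was below 0 in all 6 measurements, as were Il6st, Fgfr2 and Igf1r. Most of these values were not called, and the share of all genes below 0 in all 6 was not computed. The authors' own class code, which uses looser limits, counts Kit, Fgf4 and Igf1r as changed in both assays after RPLP1 removal, and Kit as changed in footprints in the RPLP0 line. By that code 2, 7 and 4 of the 10 mRNAs changed for RACK1, RPLP1 and RPLP0, against 2.22%, 32.2% and 22.2% of all genes. For footprints the code marks 0, 3 and 1 of the 10, against 0.628%, 15.0% and 6.96% of all genes.

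Translation efficiency, taken as footprint change less mRNA change on the log2 scale, passed an approximate test for none of the 10 genes in any line. Across all genes 0.116% passed for RACK1, 0.0326% for RPLP1 and 0.0081% for RPLP0; at an unadjusted p below 0.05 the members counted 0, 2 and 1, against 7.92%, 7.38% and 6.61% of all genes. The 2 in the RPLP1 line were Fgfr1, at 0.26 (SE 0.13), and Il6st, at 0.19 (SE 0.09), whose mRNAs fell further than their footprints. Lifr, after RPLP0 removal, had -0.22 (SE 0.11). Igf1r after RPLP1 removal lay near 0, with a 95% interval of -0.25 to 0.24. Between lines, no member differed in translation efficiency after adjustment, where 0.0665% of genes did for RACK1 minus RPLP0, 0.33% for RACK1 minus RPLP1 and 0.00835% for RPLP1 minus RPLP0; unadjusted counts were 1, 1 and 0 of 10. For footprints the counts were again 0 after adjustment, with 0.632%, 0.107% and 4.77% of all genes called, and 1 unadjusted in each pair.

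**Figure D3:**
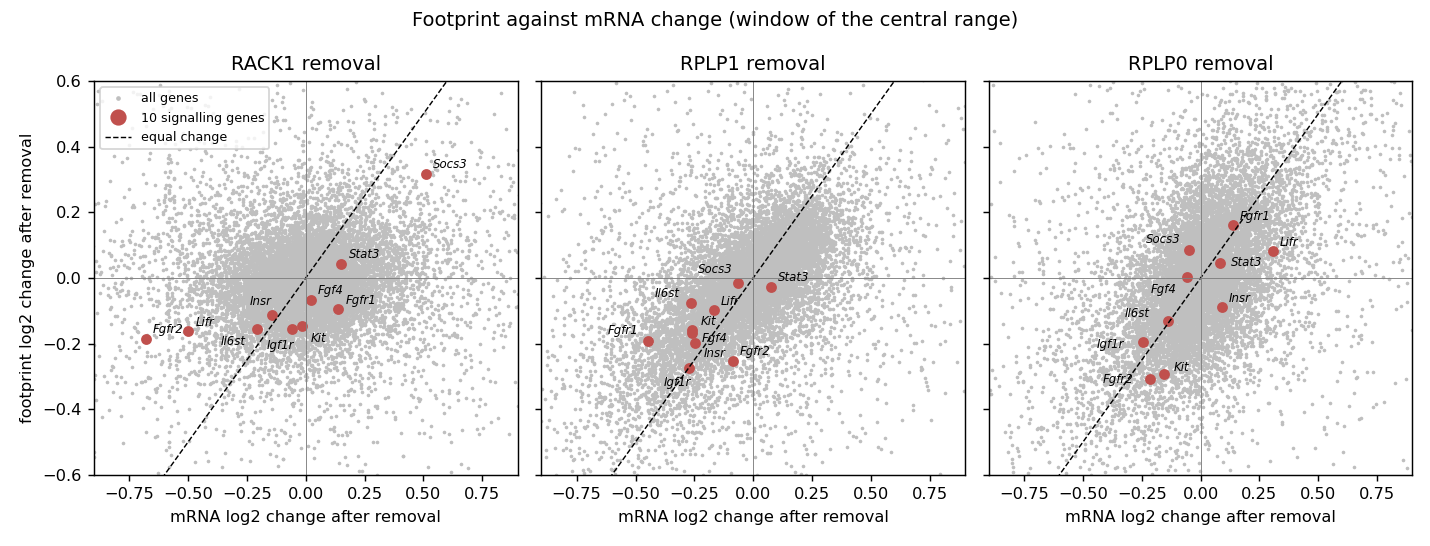
Footprint log2 change (y axis) against mRNA log2 change (x axis) for all genes (grey) and the 10 signalling genes (red) in the 3 lines; the dashed line marks equal change, and 581, 449 and 572 genes lie outside the window for RACK1, RPLP1 and RPLP0. After RPLP1 removal 9 of the 10 genes lie left of 0 and all 10 below 0, against 51.0% and 51.5% of all genes. In the RACK1 panel Socs3 lies at the upper right.

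The other genes of these pathways, 207 in 7 lists drawn up by function, were set beside the members; these lists too were drawn up with earlier results known. After RPLP1 removal 8.59% of all genes were called lower in mRNA and 4.85% in footprints, and 14.2% and 8.39% were called in either direction. After RPLP1 removal the gp130, FGF and receptor tyrosine kinase lists had medians below those of the RAS-ERK and JAK-STAT lists. These lists are not purely of surface or secreted proteins, as the FGF list also holds enzymes that build heparan sulfate, such as Ext1. The insulin, IGF and PI3K list, which holds the secreted Igfbp2, had an mRNA median of 0.02. Of 38 listed receptor tyrosine kinases and their ligands, 13 mRNAs fell and none rose, with a median of -0.34, and 10 fell and none rose in footprints, with a median of -0.25. Of 24 FGF ligands, receptors and heparan sulfate co-factors, 5 fell in mRNA (median -0.29) and 4 in footprints (median -0.24), with no increase. In contrast, of 32 genes of the RAS-ERK cascade 1 fell in mRNA, with a median near 0, while in footprints 1 fell and 2 rose (median 0.04). Of 27 JAK-STAT components 2 rose and none fell in mRNA (median 0.04) and none was called in footprints. The differences between lists were not tested.

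**Figure D4:**
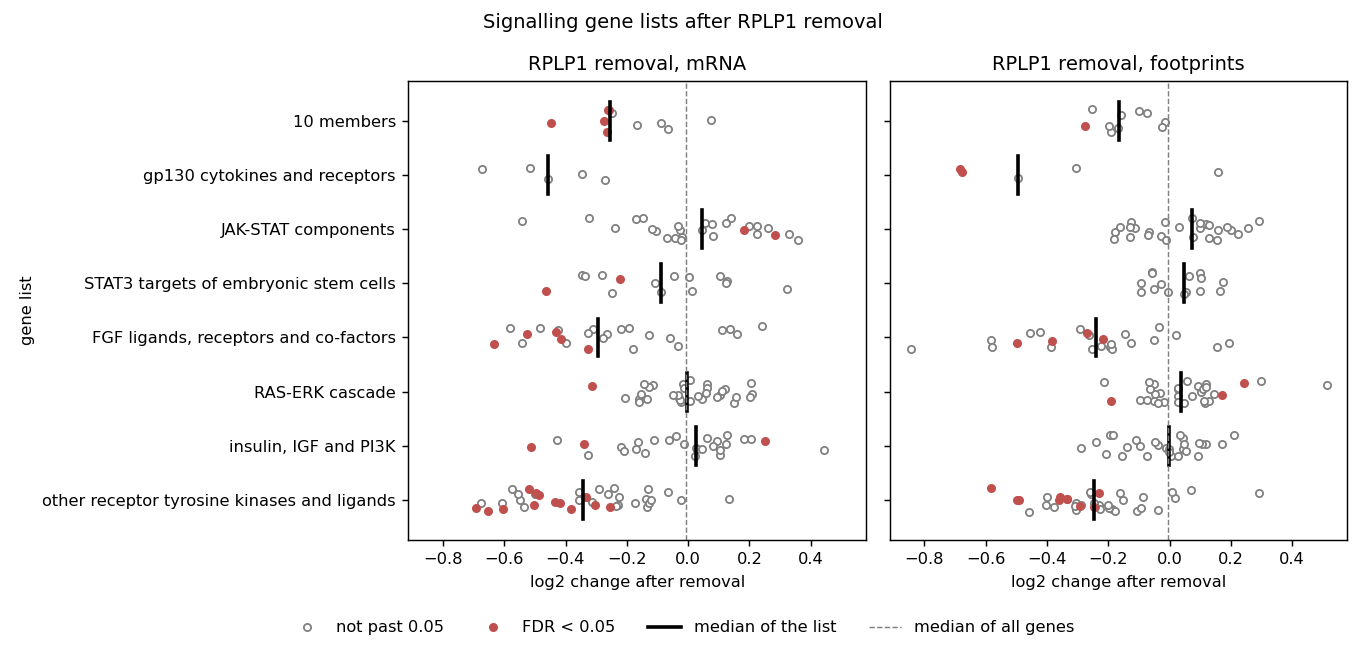
Log2 changes after RPLP1 removal (x axis) of mRNA (left) and footprints (right) for the 10 members and 7 pathway lists (y axis); each point is a gene, red where the FDR is below 0.05, with the list median as a black bar and the median of all genes dashed. The medians for receptor tyrosine kinases and FGF components lie left of the dashed line, and the RAS-ERK and JAK-STAT lists are spread around it.

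Receptors of several families were among the decreases in the RPLP1 line. Ptk7, a pseudokinase of Wnt and planar polarity signalling, fell by 0.49 on the log2 scale in mRNA (FDR 4.08e-05), and the collagen receptor Ddr1 by 0.65 (FDR 0.000118), per the authors' deposited table. Both also fell in footprints, by 0.25 (FDR 0.0282) for Ptk7 and by 0.36 (FDR 0.0262) for Ddr1, in the authors' deposited table. The ephrin receptors Ephb4 (-0.43, FDR 0.00024) and Epha1 (-0.52, FDR 0.0233) and the ephrin ligand Efnb2 (-0.60, FDR 0.0105) fell in mRNA in the authors' deposited table. Their footprint changes, -0.34, -0.50 and -0.58, passed too in the authors' deposited table, with FDRs of 0.0113, 0.0131 and 0.0158. The ERBB receptors Erbb2 (-0.50, FDR 0.00126) and Erbb3 (-0.25, FDR 0.0323), the TAM receptor Tyro3 (-0.38, FDR 0.00121) and the kinase Lmtk2 (-0.33, FDR 0.00114) fell likewise in mRNA in the authors' deposited table. Footprints of these 4 fell as well in the authors' deposited table, by 0.49 for Erbb2 (FDR 0.012), 0.34 for Erbb3 (FDR 0.0226), 0.29 for Tyro3 (FDR 0.017) and 0.36 for Lmtk2 (FDR 0.00502). For Epha4 the footprint change of -0.23 (FDR 0.0326) passed and the mRNA change of -0.07 (FDR 0.564) did not in the authors' deposited table.

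On the FGF side, the ligands Fgf15 and Fgf17 and the glypican Gpc3, a heparan sulfate proteoglycan of the cell surface, fell in both assays after RPLP1 removal. The authors' deposited table gave Fgf15 an mRNA change of -0.63 (FDR 0.0015) and a footprint change of -0.50 (FDR 0.00329). Fgf17 had -0.53 (FDR 0.00226) and -0.38 (FDR 0.0185), and Gpc3 -0.41 (FDR 0.000477) and -0.22 (FDR 0.0211), in the authors' deposited table. Ext1, an enzyme that builds heparan sulfate chains, fell in footprints by 0.27 (FDR 0.0416) with mRNA at -0.13 (FDR 0.244) in the authors' deposited table. Downstream, the kinase gene Mapk3 (ERK1) fell by 0.31 in mRNA (FDR 0.00435) and by 0.19 in footprints (FDR 0.0419), while footprints of the GTPase gene Nras rose (0.17, FDR 0.0425), in the authors' deposited table.

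The FGF list of the RPLP0 line held 2 increases and 1 decrease among 22 mRNAs, and 3 increases and 1 decrease in footprints, where 9.95% of all genes were called in mRNA and 2.46% in footprints. None of the 4 footprint calls held at an FDR limit of 0.01. Sdc4, a heparan sulfate proteoglycan, rose by 0.87 in mRNA (FDR 3.01e-11) and 0.67 in footprints (FDR 0.0134) in the authors' deposited table. Gpc4 rose by 0.50 (FDR 2.32e-07) and 0.35 (FDR 0.0107) there, per the authors' deposited table. Fgfr4 footprints rose by 0.78 (SE 0.23, FDR 0.0422) and Fgf15 footprints fell by 0.76 (SE 0.19, FDR 0.0116), per the authors' deposited table. The sulfotransferase gene Hs6st1 fell in mRNA by 0.23 (FDR 0.0338) in the authors' deposited table. Of 40 receptor tyrosine kinases and ligands 4 rose and 3 fell in mRNA, and none passed in footprints; Ptk7 (0.29, FDR 6.53e-05), Epha2 (0.29, FDR 0.000352) and Tek (0.46, FDR 0.00442) were higher and Tyro3 (-0.32, FDR 0.000374), Ror2 (-0.50, FDR 0.0162) and Met (-0.62, FDR 0.0352) lower in the authors' deposited table.

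Around the LIF receptor, 7 of 14 listed cytokines and receptors of the gp130 family were in the RPLP0 table, and 1 changed, where 9.95% of all genes were called in mRNA. Lif itself rose by 1.16 in mRNA after RPLP0 removal (SE 0.29, FDR 0.00222), with a footprint change of 1.26 that did not pass (SE 0.51, FDR 0.133), in the authors' deposited table. It was measured imprecisely, since the median SE over all genes there was 0.10 in mRNA and 0.11 in footprints. In the RPLP1 line footprints of 2 of 5 listed genes fell, against 4.85% of all genes, and neither passed at a limit of 0.01. These were Cntfr, the receptor for ciliary neurotrophic factor (-0.68, SE 0.20, FDR 0.0175), and Il27ra (-0.68, SE 0.20, FDR 0.0234), in the authors' deposited table. After RPLP0 removal 4 of 26 JAK-STAT components fell and 2 rose in mRNA and 2 fell in footprints, against 9.95% and 2.46% of all genes called in either direction. At an FDR limit of 0.01 the 6 mRNA calls came to 1. Ptpn6, the phosphatase SHP-1, fell in both assays, by 0.47 (FDR 0.0176) and by 0.41 (FDR 0.0322), per the authors' deposited table. Stat5b (-0.64, FDR 0.0175) and Pias4 (-0.25, FDR 0.0274) fell in mRNA, Pias2 (0.21, FDR 0.00549) and Socs5 (0.37, FDR 0.0456) rose, and Stat2 fell in footprints (-0.52, FDR 0.009), in the authors' deposited table. In the RPLP1 line the authors' deposited table had the increases Ptpn2 (0.28, FDR 0.0169), a phosphatase of JAK kinases, and Pias2 (0.18, FDR 0.0351).

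STAT3 targets known in embryonic stem cells were examined beside Socs3. After RACK1 removal 2 of 15 rose, the AP-1 factor Junb (0.80, FDR 0.00125) and the kinase Pim3 (0.47, FDR 0.00758), and none fell in mRNA in the authors' deposited table; the list median was 0.25, and 0.17% of all genes were called higher and 0.48% in either direction. No footprint of the list passed there, with Junb at 0.50 (FDR 0.192) and Pim3 at -0.01 (FDR 0.973) in the authors' deposited table. After RPLP1 removal 2 fell and none rose, Bcl3 (-0.46, FDR 0.000985) and Pim3 (-0.22, FDR 0.0235), in the authors' deposited table, with a median of -0.09; 14.2% of all genes were called in either direction there, so the count is near that share. In the RPLP0 line, where 9.95% of all genes were called, 3 fell and 1 rose in mRNA (median 0.02): Tfcp2l1, a factor of naive pluripotency (-0.42, FDR 2.32e-07), Myc (-0.48, FDR 0.000137) and Pim1 (-0.19, FDR 0.0277) fell and Aire (0.32, FDR 0.0299) rose in the authors' deposited table. Myc also fell in footprints, by 0.31 (FDR 0.0492), per the authors' deposited table.

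The list around Igf1r and Insr also holds ligand-binding proteins and PI3K components. Of 28 insulin, IGF and PI3K genes 1 rose and 2 fell in mRNA after RPLP1 removal (median 0.02), and 4 rose and 5 fell after RPLP0 removal (median -0.06), against 14.2% and 9.95% of all genes called; no footprint of the list passed in these tables, and no gene in either assay after RACK1 removal, where 30 were listed. Pik3r2, a regulatory subunit of PI3K, fell by 0.34 after RPLP1 removal (FDR 0.0131) and by 0.33 after RPLP0 removal (FDR 0.00835), per the authors' deposited table. Igfbp2, a secreted IGF-binding protein, fell by 0.51 in the RPLP1 line (FDR 3.14e-05) in the authors' deposited table. In the RPLP0 line Ide (-0.28, FDR 0.000716) and Foxo4 (-0.28, FDR 0.025) fell and Foxo3 (0.25, FDR 0.00525) and Inppl1 (0.24, FDR 0.00713) rose in the authors' deposited table. At an FDR limit of 0.01 the 9 insulin-list calls of that line came to 4, and the 3 calls after RPLP1 removal to 1. The RAS-ERK list had 5 decreases and 1 increase among 32 mRNAs after RPLP0 removal, of which 2 held at 0.01, and no call in footprints. Of all genes 9.95% were called in mRNA and 2.46% in footprints in that line. Mapk3 (-0.32, FDR 0.00191), the adaptor Grb2 (-0.21, FDR 0.0131) and Mknk2 (-0.25, FDR 0.018) fell and Araf (0.37, FDR 0.000923) rose in the authors' deposited table. After RACK1 removal no gene of the gp130, JAK-STAT, FGF or RAS-ERK lists passed in either assay. Of 42 genes listed as receptor tyrosine kinases and ligands 1 fell in mRNA, Lmtk2 (-0.45, FDR 0.0459), in the authors' deposited table. All genes called there came to 0.48% in mRNA and 0.031% in footprints.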

How the data were processed

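The deposited values are the authors' own comparisons, 1 table per line. Per the file headers, each holds log2 fold changes for mRNA and footprints, an FDR (adjusted p-value, deposited by the authors) for each, and a class code. Aligner, counting, annotation, test, filter and genome build are, for these tables, not given in the sources used here. The mRNA class code reaches FDRs of up to 0.2 in each table, and the footprint code FDRs of up to 0.0997 for RPLP0, 0.0999 for RPLP1 and 0.341 for RACK1. Genes are the authors' Ensembl transcripts, 1 per symbol for the members.

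Calls used the authors' FDR below 0.05 over the whole table, with no test added. For SEs, each FDR was converted to the p-value that a Benjamini-Hochberg adjustment over the listed genes would map to it, in order of size within runs of equal FDR, and the log2 change was divided by the matching normal quantile. Translation efficiency and differences between lines were tested against combined SEs (normal test, two-sided, Benjamini-Hochberg over all genes); they assume independent normal errors and are approximate. The translation efficiency calculation was tried on simulated data, with planted footprint changes larger than any change of a member (Python 3.11.15, scipy 1.17.1). The simulated errors were independent and normal, as the calculation assumes, so the trial cannot check that assumption. The test of differences between lines was not tried on simulated data. Because depth is unknown, no counting interval is given. Values per replicate were not analysed here.

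Members and lists were chosen with earlier results of these data known. Genes named from the lists were those called in footprints in any line and, per list, line and direction, up to 3 called mRNAs with the smallest FDR; some of these genes are counted in their lists but not reported singly here. Alternatives were other FDR limits, the class code, error correlation 0.5, no interpolation, median centring and precisely measured genes only. Promoters are RefSeq entries on GRCm38.p6; Fgfr1 and Insr had none, and the genes' own build in the tables is unknown.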

Additional observations from a re-analysis of the deposited data

Results flagged for a closer look

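The test called 6 mRNA differences between lines at 0.05 after adjustment, all of them for Lifr, Socs3 and Fgfr1, with 2 of 10 genes in each pair of lines. Of all genes 3.27% differed for RACK1 minus RPLP0, 7.93% for RACK1 minus RPLP1 and 12.2% for RPLP1 minus RPLP0, so the count in the last pair is close to that of all genes. Lifr differed by -0.80 for RACK1 minus RPLP0 and by -0.47 for RPLP1 minus RPLP0. Socs3 differed by 0.56 for RACK1 minus RPLP0 and by 0.58 for RACK1 minus RPLP1. Fgfr1 differed by 0.59 for RACK1 minus RPLP1 and by -0.58 for RPLP1 minus RPLP0. Each stands here because the difference itself was tested. Each line has its own DMSO samples. The 2 differences of a gene are not separate results, since they share a line: RPLP0 for Lifr, RACK1 for Socs3 and RPLP1 for Fgfr1. Clone or batch of a line cannot be told apart from the protein removed.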

How the results depend on the processing

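The counts of called members depend on the FDR limit. With a limit of 0.1, 2 mRNAs were called after RPLP0 removal, and 1 footprint after RPLP0 and 3 after RPLP1 removal, against 14.3%, 6.96% and 15.0% of all genes at that limit. With 0.01, no mRNA was called after RACK1 removal (0 of 10), 3 mRNAs after RPLP1 removal, and 0 footprints after RPLP1 removal, against 0.217%, 6.13% and 0.921% of all genes, so that Socs3 in the RACK1 line and Igf1r and Kit in the RPLP1 line no longer passed. By the authors' class code 2 mRNAs were called after RACK1 removal, 4 after RPLP0 removal, 1 footprint after RPLP0 removal and 3 after RPLP1 removal; the limits themselves set these counts. The 6 differences between lines kept their direction and passed under no interpolation, median centring and precisely measured genes only. No member passed for translation efficiency under any of its 4 alternatives, although with an error correlation of 0.5 the count over all genes went to 420 for RACK1, 473 for RPLP1 and 245 for RPLP0, against 15, 4 and 1. Many list counts fell at 0.01, and so did those of all genes. Calls over all genes went from 1746 to 752 mRNAs and from 1030 to 113 footprints for RPLP1. For RPLP0 they went from 1229 to 653 mRNAs and from 304 to 71 footprints, and for RACK1 from 62 to 28 mRNAs. In the RPLP1 line the receptor tyrosine kinases and ligands kept 9 of 13 mRNA calls and 1 of 10 footprint calls, the FGF list 1 of 4 footprint calls, and the gp130 and RAS-ERK lists 0 of 2 and 0 of 3 footprint calls; JAK-STAT kept 0 of 2 mRNA calls and the STAT3 targets 1 of 2. In the RPLP0 line mRNA calls kept were 1 of 6 for JAK-STAT, 2 of 6 for RAS-ERK, 4 of 9 for insulin, 2 of 4 for STAT3 targets and 4 of 7 for receptor tyrosine kinases, and footprint calls 0 of 4 for FGF, 1 of 2 for JAK-STAT and 0 of 1 for STAT3 targets. Lmtk2, the single RACK1 call of the list of receptor tyrosine kinases and ligands, did not pass either. The precise subset left 7 or 8 of 10 members, since it drops Fgfr2 among others. No paired analysis was possible because the tables hold no values per replicate, and for the same reason leaving out single replicates was not run. Depth per sample is unknown, so it is not known which changes more reads would resolve.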
